A study of Mus musculus with 6 samples.

Results

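Fasn, Scd2, Fads1 and Fads2 encode enzymes that build and desaturate fatty acids, and Lpin1 encodes an enzyme of glycerolipid synthesis. These 5 genes were taken by name from the 1386 genes and loci of a table in which the study's authors compared intestinal epithelium of mice given a gut bacterium with that of mice given the carrier. All 5 stand among the 1040 entries listed as lower after the bacterium, and 346 entries are listed as higher.

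The animals were wild-type (WT) mice on normal chow, 8 weeks old when treatment began. The Akk group received 400000000 Akkermansia muciniphila a day by oral gavage for 7 weeks, and the control group received PBS by the same route. Akkermansia muciniphila is a bacterium that lives in the mucus layer of the gut and feeds on mucin. RNA from intestinal epithelial cells was sequenced in 3 libraries per group, numbered 1 to 3. Whether every library stands for a separate mouse is not stated, and the p-values then measure the spread between these libraries, which may in part be technical.

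Fatty acid synthase, the product of Fasn, makes palmitate from acetyl-CoA and malonyl-CoA, the latter supplied by the acetyl-CoA carboxylases. Stearoyl-CoA desaturases such as Scd2 then place the first double bond and yield monounsaturated fatty acids, while the enzymes of Fads2 and Fads1 act in sequence on dietary polyunsaturated fatty acids on the way to arachidonic and eicosapentaenoic acid. Lpin1 encodes lipin 1, which converts phosphatidate to diacylglycerol, the common precursor of triglyceride and of phospholipids, and which also acts as a transcriptional coactivator. In the intestine such lipids serve the membranes of renewing cells and the chylomicrons that carry dietary fat.

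The 5 genes lie on 3 chromosomes; coordinates are those of GENCODE M21 on GRCm38, the assembly that mm10 names. Fads2 (ENSMUSG00000024665, chromosome 19, 10062765 to 10101746, minus strand) and Fads1 (ENSMUSG00000010663, chromosome 19, 10182888 to 10196877, plus strand) point away from each other. Their start sites are 81.1 kb apart, with 0 protein-coding genes between them. Scd2 (ENSMUSG00000025203, chromosome 19, 44293674 to 44306864, plus strand) belongs to a cluster of 4 stearoyl-CoA desaturase genes that spans 204.6 kb, and it is the only 1 of the 4 that the table lists. Fasn (ENSMUSG00000025153) lies at 120805846 to 120824547 of chromosome 11 and Lpin1 (ENSMUSG00000020593) at 16535669 to 16610966 of chromosome 12, both on the minus strand.

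RefSeq promoter windows on GRCm38.p6, from 250 bases before to 50 bases after the start site, were matched for 3 of the 5 genes: Fasn, Fads2 and Lpin1. They are shown because genes of this pathway are known targets of factors with short recognition motifs, and capitals mark every match to the 5 motifs searched on both strands. The motifs were the NF-Y box CCAAT, the sterol response element TCACNCCAC, the E-box CACGTG, the GC box GGGCGG and the nuclear receptor half-site AGGTCA. The windows are Fasn at chr11:120824498-120824797, Fads2 at chr19:10101454-10101753 and Lpin1 at chr12:16610917-16611216, each on the minus strand and printed 5′ to 3′ along the gene.
Fasn: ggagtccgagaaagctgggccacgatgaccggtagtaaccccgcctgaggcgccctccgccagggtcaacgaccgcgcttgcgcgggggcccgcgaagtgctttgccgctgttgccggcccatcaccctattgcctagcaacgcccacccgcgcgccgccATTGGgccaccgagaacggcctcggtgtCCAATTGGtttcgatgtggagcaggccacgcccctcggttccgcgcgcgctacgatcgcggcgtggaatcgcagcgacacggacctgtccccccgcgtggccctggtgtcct
Fads2: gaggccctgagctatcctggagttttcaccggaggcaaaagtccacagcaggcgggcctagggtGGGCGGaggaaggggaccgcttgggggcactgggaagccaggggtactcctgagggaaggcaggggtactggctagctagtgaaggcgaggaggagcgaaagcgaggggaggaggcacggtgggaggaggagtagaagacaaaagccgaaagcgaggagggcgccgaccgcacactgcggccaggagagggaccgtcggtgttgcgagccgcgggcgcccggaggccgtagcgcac
Lpin1: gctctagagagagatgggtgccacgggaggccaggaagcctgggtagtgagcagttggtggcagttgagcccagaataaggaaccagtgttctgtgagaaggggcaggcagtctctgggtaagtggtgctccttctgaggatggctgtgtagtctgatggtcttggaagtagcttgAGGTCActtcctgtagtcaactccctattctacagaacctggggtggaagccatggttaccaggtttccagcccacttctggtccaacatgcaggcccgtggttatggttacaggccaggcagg
The Fasn window held 3 NF-Y boxes, which begin 90, 62 and 59 bases before the start site. The pair nearest the start site lie on opposite strands and overlap in the run CCAATTGG. At least 1 NF-Y box stands in 37.4% of all 32851 mouse windows of this length. The Fads2 window held a single GC box, 186 bases before the RefSeq start site of the window, a motif found in 35.7% of windows. The GENCODE start of Fads2, at 10101746, lies near the 5′ end of this window. By that start the GC box and most of the Fads2 window lie inside the gene. The Lpin1 window held a single nuclear receptor half-site, 74 bases before the start site, a motif found in 16.3% of windows. The letters of the sterol response element (1.24% of windows) and of the E-box (7.15%) were not in these 3 windows. Only exact matches were searched, so sites that vary from these letters would be missed. The Fasn and Fads2 windows were rich in G and C, at 69.3% and 67.0%, against 55.3% for Lpin1 and a median of 52.7% over all windows.

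Levels are given as FPKM, the authors' deposited measure of fragments scaled to gene length and to sequencing depth. The sequencing depth recovered from the deposited values was 23463925 to 29253852 fragments per library. The lowest count of any of the 5 genes in any library was 70, for Fads1, where counting alone gives an error of 12.0%. PBS replicate 2 differed from all others: of the 1040 genes listed as lower, 1022 were highest in it. All 5 genes were among these 1022, so each of their fold changes below is also given without that library.

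Fasn, the enzyme of palmitate synthesis, had 2.62, 12.3 and 2.31 FPKM in PBS replicates 1 to 3. In Akk replicates 1 to 3 it had 1.80, 1.47 and 1.93 FPKM. PBS replicate 2 was far above the rest, and the other PBS libraries lay just above the Akk libraries: the lowest PBS value was 1.19 times the highest Akk value. The mean was 1.74 ± 0.238 FPKM in Akk and 5.75 ± 5.70 in PBS (SD, n = 3 each), and 2.46 ± 0.221 over PBS replicates 1 and 3 (n = 2). The log2 fold change of Akk over PBS was -1.73 (SE 0.74; edgeR quasi-likelihood test, Benjamini-Hochberg adjusted p = 0.0864), and -0.50 (SE 0.21, adjusted p = 0.0866) without PBS replicate 2. Fasn thus passed the adjusted threshold of 0.05 in neither fit. With RLE scaling factors computed from the listed genes its log2 fold change was 0.053, the opposite sign. Such factors take most entries as unchanged, although all were selected as different. They moved the median over all entries from -1.85 to -0.15, so this sign cannot decide the direction for Fasn.

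Scd2, which introduces a double bond into saturated fatty acids, had 10.2, 19.9 and 6.09 FPKM in PBS replicates 1 to 3 and 4.45, 4.47 and 3.97 FPKM in Akk replicates 1 to 3. The Akk libraries lay within 1.12 times of each other, the narrowest spread of the 5 genes, and below every PBS library. The mean was 4.30 ± 0.280 FPKM in Akk against 12.1 ± 7.12 in PBS, and 8.14 ± 2.90 over PBS replicates 1 and 3. PBS replicate 2 stood 2.45 times above the mean of the other PBS libraries, the smallest excess among the 5. The edgeR log2 fold change was -1.49 (SE 0.57, adjusted p = 0.0861) with all 6 libraries and -0.92 (SE 0.25, adjusted p = 0.0490) without PBS replicate 2. Of the 50-base stretches of Scd2 transcripts, 3.97% also occur in another gene, chiefly Scd1 and Scd3, so part of its count could belong to these close relatives. How large a part was not tested, and the levels of Scd1 and Scd3 are not listed. The stretches come from GENCODE M21, whose Scd2 exons cover 5464 bases, whereas the deposited values imply a length of about 7825 to 7830.

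Fads2, the delta-6 desaturase that opens the polyunsaturated pathway, had 8.26, 81.9 and 6.82 FPKM in PBS replicates 1 to 3. In Akk replicates 1 to 3 it had 2.31, 2.74 and 3.49 FPKM. All Akk libraries were below all PBS libraries, and the gap was the widest of the 5 genes: the lowest PBS value was 1.95 times the highest Akk value. The mean was 2.85 ± 0.596 FPKM in Akk, 32.3 ± 42.9 in PBS and 7.54 ± 1.02 over PBS replicates 1 and 3. The edgeR log2 fold change was -3.50 (SE 1.06, adjusted p = 0.0861) with all libraries and -1.40 (SE 0.25, adjusted p = 0.0352) without PBS replicate 2. By size of that second estimate Fads2 ranked 62 among the 1040 genes listed as lower, against 76 with all libraries.

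Fads1, the delta-5 desaturase that acts after Fads2, had 0.773, 14.1 and 1.01 FPKM in PBS replicates 1 to 3 and 0.481, 0.544 and 0.758 FPKM in Akk replicates 1 to 3. PBS replicate 2 was 15.8 times the mean of the other PBS libraries, a larger excess than 93.2% of the genes listed as lower showed. Outside that library the groups nearly met, since PBS replicate 1 was 1.02 times Akk replicate 3. The mean was 0.594 ± 0.146 FPKM in Akk, 5.28 ± 7.61 in PBS and 0.891 ± 0.167 over PBS replicates 1 and 3. The edgeR log2 fold change was -3.14 (SE 1.21, adjusted p = 0.0861) with all libraries and -0.58 (SE 0.30, adjusted p = 0.131) without PBS replicate 2. By the size of its estimate Fads1 ranked 146 among the 1040 genes with all libraries, and 830 when PBS replicate 2 was left out.

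Lpin1, the phosphatidate phosphatase, had 0.976, 4.38 and 0.832 FPKM in PBS replicates 1 to 3. In Akk replicates 1 to 3 it had 0.438, 0.421 and 0.651 FPKM. The Akk libraries again lay below the PBS libraries, with the lowest PBS value 1.28 times the highest Akk value. The mean was 0.504 ± 0.128 FPKM in Akk, 2.06 ± 2.01 in PBS and 0.904 ± 0.102 over PBS replicates 1 and 3. The edgeR log2 fold change was -1.97 (SE 0.85, adjusted p = 0.0864) with all libraries and -0.83 (SE 0.28, adjusted p = 0.0609) without PBS replicate 2. Lpin1 was thus lower in Akk in every library but passed the edgeR threshold in neither of these fits.

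**Figure D1:**
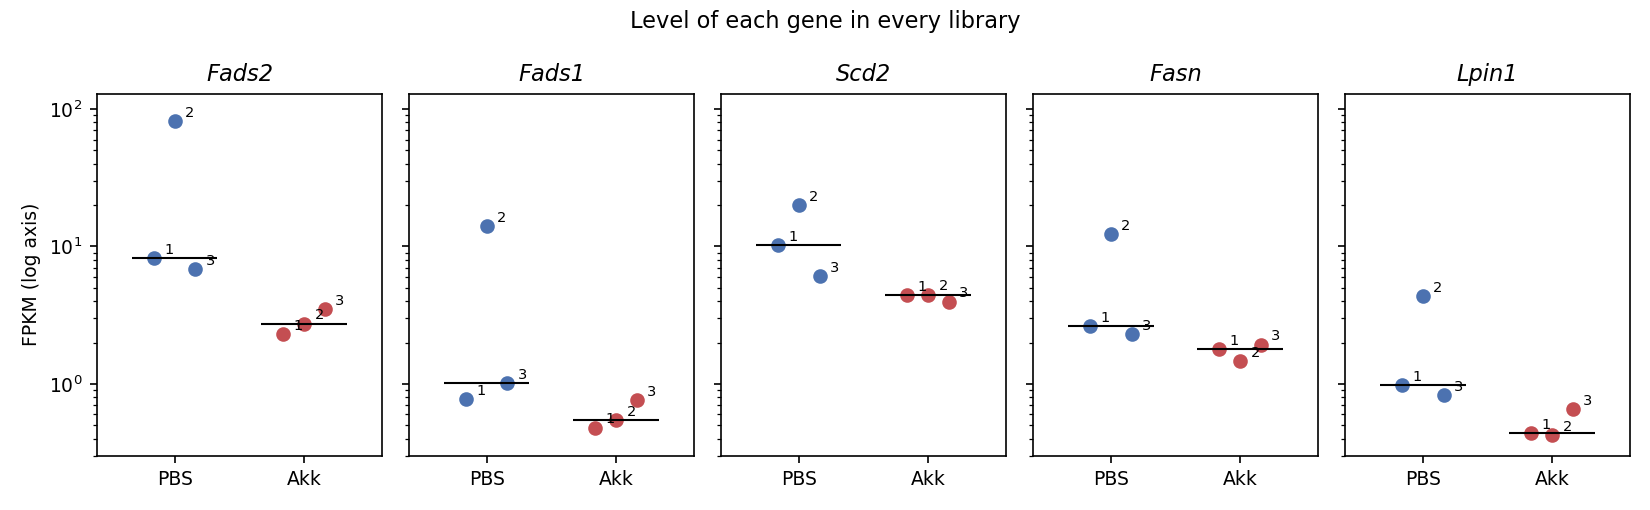
FPKM (log axis) of Fads2, Fads1, Scd2, Fasn and Lpin1 in each of the 3 PBS and 3 Akk libraries; points are libraries marked with their replicate number and lines are group medians. In all 5 genes the Akk libraries sit below the PBS libraries, and PBS replicate 2 is the highest library, from 4.38 FPKM for Lpin1 to 81.9 for Fads2.

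All Akk libraries were below all PBS libraries for 5 of the 5 genes. The same held for 901 of the 1040 genes listed as lower, which is 65% of the 1386 entries. The authors chose these entries for a difference in the same 6 libraries, which also set the direction, so the tests are no independent evidence of it. With all 6 libraries, edgeR passed 0 of the 5 genes after adjustment, against 0% of the entries, and 5 of 5 at an unadjusted p under 0.05, against 54.3% of the entries. DESeq2, another count test, passed Scd2 (Benjamini-Hochberg adjusted p = 0.0152), Fasn (0.0181) and Lpin1 (0.0229), while it marked Fads1 and Fads2 as holding an outlying count and gave them no p. That is 3 of 5 against 51.4% of the entries. DESeq2 gave no adjusted p to 262 of the 1386 entries, and the 51.4% counts these as not passed. The shares of entries passed, here and in the next paragraph, count those passed as lower over all 1386. Of these 1386 entries 346 are listed as higher.

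The calls turned on which PBS library was left out. Without PBS replicate 2, edgeR passed Fads2 and Scd2, 2 of 5 against 17.7% of the entries. DESeq2 without that library passed Fads2 (adjusted p = 0.000215), Scd2 (0.0170) and Lpin1 (0.0393), 3 of 5 against 36.4%. Without PBS replicate 1, edgeR passed Fads1, Fads2 and Fasn, 3 of 5 against 52.2%, and without PBS replicate 3 it passed all but Lpin1, 4 of 5 against 50.9%. Only Fads2 passed edgeR whichever single PBS library was left out. With any Akk library left out, 0 of 5 passed, and so did 0 of all 1386 entries. The median log2 fold change of the 5 genes was -1.97 with all libraries, beside -2.19 for all genes listed as lower. Without PBS replicate 2 these medians were -0.83 and -0.78. RLE factors from the listed genes, which shift the median of all entries from -1.85 to -0.15, gave log2 fold changes of -1.35 for Fads2, -0.85 for Fads1, -0.25 for Lpin1 and -0.083 for Scd2. TMM factors, with a median of -0.21, gave -1.45, -0.96, -0.31 and -0.12 for these genes and -0.011 for Fasn.

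**Figure D2:**
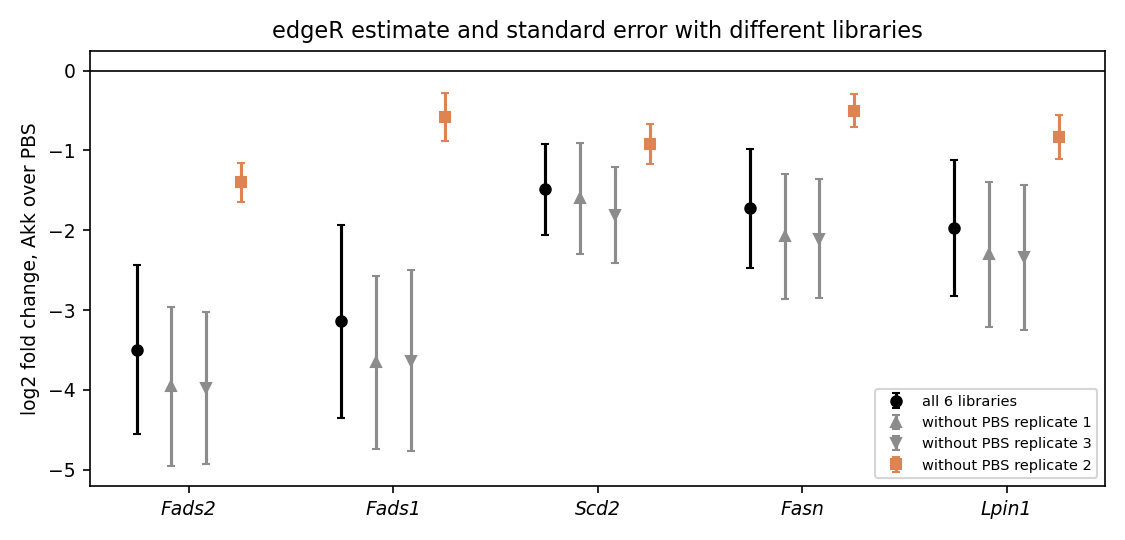
Log2 fold change of Akk over PBS by edgeR, with its standard error as bars, for each gene with all 6 libraries and with each PBS replicate left out. Without PBS replicate 2 the estimates run from -1.40 for Fads2 to -0.50 for Fasn, nearer to 0 than with all libraries, where they run from -3.50 to -1.49, and their standard errors are smaller.

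The authors' deposited table gives smaller differences than the ratio of group means. Its log2 fold changes are -1.77 for Fads2, -1.34 for Fads1, -1.08 for Lpin1, -0.91 for Scd2 and -0.90 for Fasn. The p-values in the authors' deposited table run from 0.000427 for Fads2 to 0.0331 for Fasn, and its header does not say whether they are adjusted. Fads2 had the strongest difference of the 5 both there and in the edgeR fits.

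The excess of PBS replicate 2 differed between the 5 genes. Over the mean of PBS replicates 1 and 3 it was 15.8 times higher for Fads1, 10.9 for Fads2, 5.01 for Fasn, 4.85 for Lpin1 and 2.45 for Scd2. The median over the genes listed as lower was 5.77, so the polyunsaturated fatty acid desaturases lay above that median and the other 3 genes below it. Scd2 exceeded only 11.9% of those genes in this respect.

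Markers of crypt cells were high in the same library. Of 16 genes of proliferating cells 15 were listed, all highest in PBS replicate 2, where they summed to 422 FPKM against 35.8 and 45.8 in the other PBS libraries and 18.4 to 29.5 in Akk. Of 13 Paneth cell markers 11 were listed, all highest there, with a sum of 9066 FPKM against 219 and 247 in the other PBS libraries and 171 to 202 in Akk. The 5 listed of 12 crypt stem cell markers summed to 627 FPKM there, 13.8 and 14.7 in the other PBS libraries and 7.37 to 10.7 in Akk. The 3 listed of 13 enterocyte markers, Apoa4, Apoc3 and Apob, were lowest there, at 657 FPKM against 2343 and 3862 in the other PBS libraries and 4538 to 6180 in Akk. Of the pancreatic markers 1 of 8 was listed, Clps, with 66.1 FPKM in PBS replicate 2 and 1.24 to 2.45 elsewhere. No tuft cell, adipocyte, immune or stromal marker was listed, and since the table holds selected genes, the label of epithelial cells could be checked no further. The part of cell makeup in the values of the 5 lipid genes was not tested, and in bulk RNA fewer cells of a type cannot be told apart from less RNA per cell.

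**Figure D3:**
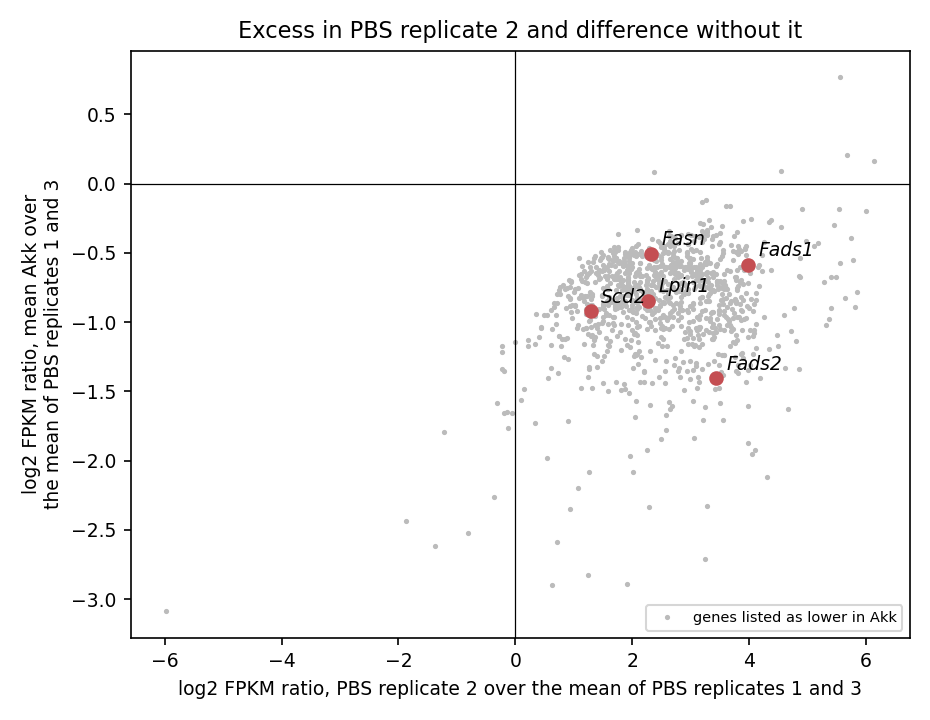
For the 1040 genes listed as lower in Akk (grey), the log2 FPKM ratio of PBS replicate 2 over the mean of PBS replicates 1 and 3 (x axis) and of the mean of Akk over the same mean (y axis); the 5 lipid genes are marked in red. Fads1 and Fads2 lie to the right and Scd2 to the left, and Fads2 lies lowest of the 5, with a PBS level 2.65 times that of Akk after PBS replicate 2 is set aside.

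With PBS replicate 2 set aside, the mean of PBS replicates 1 and 3 was 2.65 times the Akk mean for Fads2, 1.89 for Scd2, 1.80 for Lpin1, 1.5 for Fads1 and 1.42 for Fasn. The order of the genes by this ratio differs from that with all PBS libraries, which was 11.3 for Fads2, 8.89 for Fads1, 4.10 for Lpin1, 3.31 for Fasn and 2.81 for Scd2. Fads1 stands below Scd2 and Lpin1 in the order without PBS replicate 2 and above them with it. The highest Akk library was 1.58 times the lowest for Fads1, 1.55 for Lpin1, 1.51 for Fads2 and 1.31 for Fasn, so the Fads1 and Fasn differences were of about the size of the spread within the Akk group.

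Ratios between the genes within a library do not depend on depth or on scaling factors, and were compared for all 10 pairs. Relative to Fasn, Fads2 was 3.15, 6.64 and 2.96 times as high in PBS replicates 1 to 3 and 1.28, 1.86 and 1.80 times as high in Akk replicates 1 to 3. The groups did not overlap, and the mean log2 ratio was 0.70 ± 0.30 in Akk and 1.98 ± 0.65 in PBS, a difference of -1.28 (SD, n = 3; two-sided exact permutation p = 0.1, adjusted over 10 pairs 0.25). Relative to Lpin1, Fads2 was 8.46, 18.7 and 8.19 times as high in PBS and 5.28, 6.51 and 5.36 times in Akk, again without overlap. Relative to Fads1, Fads2 was 10.7, 5.82 and 6.75 times as high in PBS and 4.81, 5.04 and 4.60 times in Akk. In this pair PBS replicate 2 was the PBS library nearest to Akk. The Akk libraries agreed closely here, with a mean log2 ratio of 2.27 ± 0.07 against 2.90 ± 0.46 in PBS. Fasn relative to Lpin1 went the other way, at 2.68, 2.81 and 2.77 in PBS and 4.11, 3.49 and 2.97 in Akk. With 3 libraries against 3 the smallest p this test can give is 0.1, which these 4 pairs reached, so no pair could pass 0.05. From counts scaled to depth (CPM) in place of FPKM, the Fads2 pairs kept p = 0.1, but Fasn over Lpin1 overlapped (exact permutation p = 0.2), at 5.33 in Akk replicate 3 and 5.34 in PBS replicate 2.

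The other 6 pairs overlapped between the groups. Fads2 relative to Scd2 had a log2 difference of -1.24 with all libraries and -0.54 without PBS replicate 2. Without that library the differences of the 4 pairs that did not overlap were -0.91 for Fads2 over Fasn, -0.82 for Fads2 over Fads1, -0.55 for Fads2 over Lpin1 and 0.36 for Fasn over Lpin1. On FPKM these 4 kept their direction with each library left out in turn. For Fads1 relative to Scd2 the difference was -0.61 over the 6 libraries and changed sign, to 0.28, when PBS replicate 2 was left out.

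**Figure D4:**
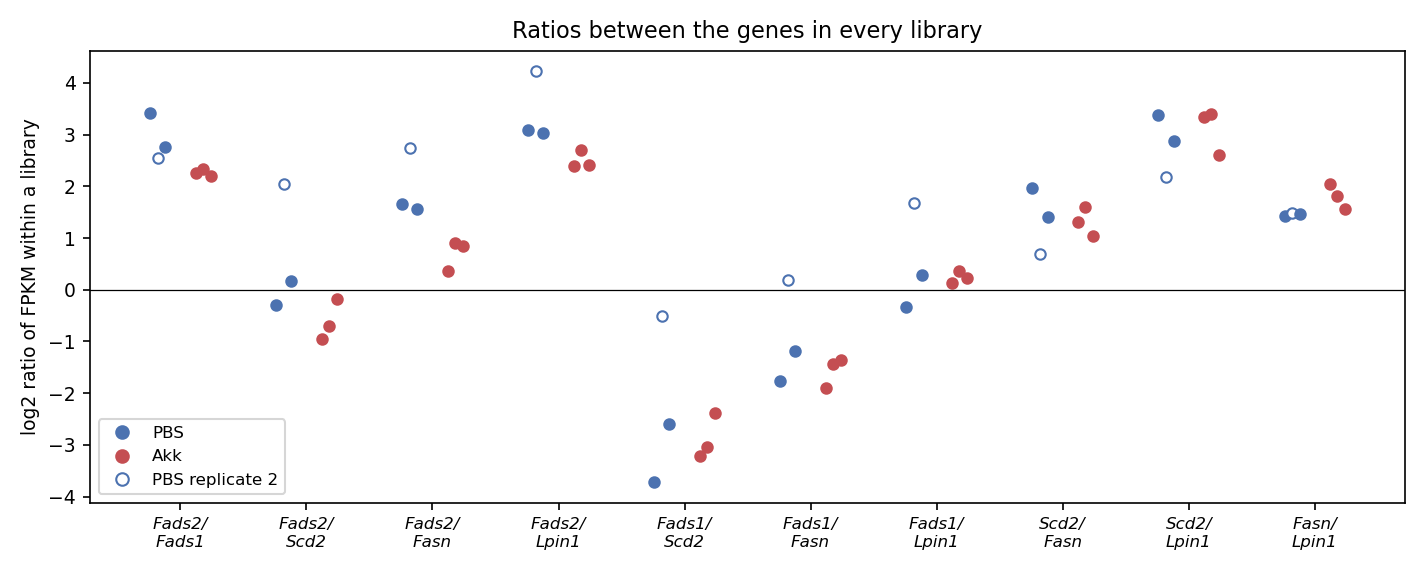
Log2 ratio of FPKM within each library for the 10 pairs of genes; blue points are PBS libraries, with replicate 2 as an open circle, and red points are Akk libraries. The pairs Fads2/Fads1, Fads2/Fasn and Fads2/Lpin1 are lower in all Akk libraries than in all PBS libraries and Fasn/Lpin1 is higher (not so on CPM), while the other 6 pairs overlap.

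In all 3 Akk libraries the order of FPKM was Scd2, Fads2, Fasn, Fads1, Lpin1, from 3.97 to 4.47 for Scd2 down to 0.421 to 0.651 for Lpin1. Fads1 and Lpin1, the lowest pair, overlapped in their ranges. In PBS replicate 1 the order was Scd2, Fads2, Fasn, Lpin1, Fads1. In PBS replicates 2 and 3 Fads2 stood first, ahead of Scd2, and in replicate 2 Fads1 passed Fasn. The 5 genes summed to 22.8, 132.6 and 17.1 FPKM in PBS replicates 1 to 3 and to 9.48, 9.65 and 10.8 FPKM in Akk replicates 1 to 3, so the Akk libraries spanned a much narrower range.

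The order of neighbouring genes rests on the gene lengths behind FPKM, which the sources used here do not give. The deposited counts and FPKM imply about 14423 to 14436 bases for Fasn and 2164 to 2174 for Fads2, whereas the exons of GENCODE M21 cover 10947 and 3295 bases. With the GENCODE lengths, Fasn stood above Fads2 in all 3 Akk libraries, at 2.37, 1.94 and 2.55 CPM per kilobase against 1.53, 1.80 and 2.30. Scd2 stayed first in the Akk libraries and Lpin1 last, while in PBS replicate 3 Scd2 moved above Fads2 and in PBS replicate 2 Fasn moved above Fads1. In PBS, Fads2 remained above Fasn with these lengths, at 5.42, 53.8 and 4.48 CPM per kilobase against 3.45, 16.2 and 3.04. For Lpin1 the implied length also differed between libraries, from 7593 to 8047 bases, so its FPKM and its counts do not give quite the same ratios between libraries.

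Of 96 genes in 4 lists of lipid synthesis and its control, 16 were listed, 12 of them lower and 4 higher in Akk. The other 80 either did not reach the thresholds of the authors or went unmeasured, which cannot be told apart. Of 32 genes of fatty acid synthesis, elongation and desaturation 8 were listed, all lower. All 8 had every Akk library below every PBS library, as did 65% of the entries and 901 of the 1040 listed as lower. Beside Fasn, Scd2, Fads1 and Fads2, the 8 included Acaca, Acacb, Mecr and Elovl7. By edgeR 0 of the 8 passed with all libraries and 3 passed without PBS replicate 2, namely Fads2, Scd2 and Mecr, where 17.7% of the entries passed as lower. DESeq2 passed 6 with all libraries, where 51.4% of the entries passed as lower. The median log2 fold change of the 8 was -1.80, beside -2.19 for all genes listed as lower and -1.85 over all 1386 entries. Without PBS replicate 2 it was -0.71, beside -0.78 for the genes listed as lower and -0.66 over all entries.

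Acaca and Acacb encode the carboxylases whose malonyl-CoA feeds fatty acid synthase. They had 0.672 ± 0.149 and 0.176 ± 0.0658 FPKM in Akk against 2.21 ± 1.65 and 0.933 ± 0.801 in PBS. The edgeR log2 fold change of Acaca was -1.63, and -0.74 (adjusted p = 0.0603) when PBS replicate 2 was left out. For Acacb these values were -2.12 and -0.68 (adjusted p = 0.151). Its groups nearly met, with 0.243 FPKM in Akk replicate 2 and 0.246 in PBS replicate 3. Mecr, the enoyl reductase of mitochondrial fatty acid synthesis, had 4.88 ± 1.12 FPKM in Akk and 18 ± 11.1 in PBS, with a log2 fold change of -1.88. It passed edgeR without PBS replicate 2, at -1.25 (SE 0.26, adjusted p = 0.0407). Elovl7, an elongase of long-chain fatty acids, had 6.48 ± 0.846 FPKM in Akk and 14.2 ± 8.36 in PBS. Its edgeR log2 fold change was -1.12 on recovered depth and -0.53 (adjusted p = 0.0705) without PBS replicate 2. It took the opposite sign with RLE (0.31) and TMM factors (0.27). These factors moved the median over all entries from -1.85 to -0.15 and -0.21, so this sign cannot decide the direction for Elovl7.

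Of 25 genes of glycerolipid synthesis 3 were listed, Lpin1, Agpat5 and Pcyt1a, and 0 passed edgeR with all libraries or without PBS replicate 2. Of all 1386 entries, 0 and 270 passed in these fits, in either direction. Agpat5, an acyltransferase that makes phosphatidate, had 0.415 ± 0.0993 FPKM in Akk and 0.575, 4.79 and 0.631 FPKM in PBS replicates 1 to 3. Its log2 fold change was -1.96, and -0.54 (adjusted p = 0.119) when PBS replicate 2 was left out. Pcyt1a, which catalyses the regulated step of phosphatidylcholine synthesis, had 60.3 ± 15.5 FPKM in Akk and 41.7 ± 8.45 in PBS, with overlap. The other lipin genes, Lpin2 and Lpin3, were not listed, nor were Scd1, Fads3 or Acly.

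Of 17 regulators of lipogenesis 3 were listed, and 0 passed edgeR with all libraries or without PBS replicate 2. Over all 1386 entries, 0 and 270 passed in these fits. Ppara, a nuclear receptor for fatty acids, had 1.94 ± 0.591 FPKM in Akk and 5.03 ± 2.10 in PBS. Insig1 and Insig2, which hold back the processing of the SREBP factors that drive Fasn and the desaturases, had 22.0 ± 2.87 and 15.3 ± 3.18 FPKM in Akk against 16.3 ± 3.46 and 9.74 ± 1.53 in PBS. Insig1 overlapped between the groups, while Ppara and Insig2 did not. For Insig2 the margin was narrow, with 11.6 FPKM in Akk replicate 3 and 11.5 in PBS replicate 3. Among genes of sterol synthesis and uptake, Sc5d, a desaturase of cholesterol synthesis, was listed as higher, with 20.2 ± 4.88 FPKM in Akk and 13.9 ± 2.53 in PBS.

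The listed genes whose profile over the 6 libraries was most like that of each enzyme were found by the root-mean-square difference of centred log2(FPKM + 0.1) values among 1156 genes. For Fads2 these were Ccnb1 (0.014), Stmn1 (0.11) and Cdk1 (0.13), which encode a mitotic cyclin, a microtubule-binding protein and the main mitotic kinase. Ccnb1 had 2.74, 28.4 and 2.29 FPKM in PBS and 0.720, 0.862 and 1.14 in Akk, close to a constant share of Fads2 in every library. For Fads1 they were Kif11 (0.093), a motor of the mitotic spindle, Gart (0.14), an enzyme of purine synthesis, and Racgap1 (0.15), which acts in cytokinesis. For Fasn they were Soat1 (0.034), which esterifies cholesterol, Xrcc6 (0.058), a DNA repair protein, and Krt7 (0.10), a keratin.

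For Lpin1 the nearest profiles included the ribosomal protein pseudogene Rps12-ps3 (0.067) and Fundc2 (0.12). For Scd2 they were Mthfd2l (0.13), a mitochondrial folate enzyme, Prkaa2 (0.15), the alpha 2 catalytic subunit of AMPK, and Pcca (0.17), a subunit of propionyl-CoA carboxylase. Among the 5 genes themselves Fasn and Lpin1 were nearest to each other (0.16) and Fads2 and Scd2 farthest apart (0.96). PBS replicate 2 was the highest library in all of these profiles, so they share a large deviation in 1 library. Over the other 5 libraries Ccnb1 and Stmn1 remained nearest to Fads2, and Soat1 and Xrcc6 to Fasn, and Rps12-ps3 stayed among the nearest 3 to Lpin1. For Fads1 and Scd2 none of the 3 remained.

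Neighbours on the chromosome were few in the table. Within 500 kb, Incenp was listed near Fads1 and Fads2, Greb1 near Lpin1, and Hgs, Alyref and Sectm1a near Fasn, while no other gene was listed near Scd2. Of these, Sectm1a was listed as higher and the others as lower.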

How the data were processed

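RNA of 6 libraries was analysed from a single table of selected genes. The authors deposited whole-number read counts and FPKM per library, and per gene a p-value and the log2 fold change, per the file headers. The submitters' processing notes name mm10. For the aligner, counting program, annotation, strand setting, statistical test and p-value adjustment, nothing is stated in the sources used. The largest deposited p-value is 0.0498 and the smallest fold 1.5. Of 1386 entries, 1322 matched GENCODE M21 by identifier, 64 have no gene name, and 2 lines of annotation text were left out.

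Since column totals of selected genes are not depth, depth was derived by dividing counts by FPKM within 560 genes with counts of at least 200. It served as library size in edgeR 4.0.16 (R 4.3.3; quasi-likelihood F test, Benjamini-Hochberg over the 1386 entries, threshold 0.05). The procedure was tested on simulated counts with known folds, with less spread between libraries than these data show and no outlying library. That test therefore does not show how the procedure performs with a library such as PBS replicate 2. Standard errors are the absolute log2 fold change over the square root of F. Alternatives were RLE, TMM and upper-quartile factors, count filters, a replicate block, DESeq2 1.42.0, limma 3.58.1 (voom, or FPKM plus 0.1 or 1) and each library left out. Pair ratios used exact permutation tests.

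The 5 genes and the gene lists were chosen with earlier results of these data known. The 5 genes, every listed gene of 4 pathway lists and, for each of the 5, the 3 nearest profiles with a mean of at least 1 FPKM are named; at most 3 genes of each of 11 marker lists are. Some genes that this rule names are not reported here. Neighbours within 500 kb were named after their values were seen. Motif counts used the promoter table from RefSeq. Counting errors cover sampling of reads only.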

Additional observations from a re-analysis of the deposited data

How the results depend on the processing

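With edgeR on recovered depth 0 of 1386 entries passed. DESeq2 passed 786, limma-voom 2, limma on log2(FPKM + 0.1) 1, and leaving out 1 library gave 0 to 734. DESeq2 without PBS replicate 2, chosen after seeing the data, passed 595. Count filters removed no entry. TMM, RLE and upper-quartile factors passed 0, while the median log2 fold change over the table went from -1.85 to -0.21, -0.15 and -0.63. RLE, which takes most entries as unchanged although all were selected as different, gave Fasn 0.053, the opposite sign.

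With 1 library left out, log2 fold changes ran from -3.66 to -0.58 for Fads1, -3.98 to -1.40 for Fads2, -1.81 to -0.92 for Scd2, -2.11 to -0.50 for Fasn and -2.34 to -0.83 for Lpin1. The values nearest to 0 were those without PBS replicate 2. DESeq2 passed Scd2 (-1.49), Fasn (-1.73) and Lpin1 (-1.97), and without PBS replicate 2 it passed Fads2 (-1.40), Scd2 (-0.92) and Lpin1 (-0.83). Of the 16 listed lipid genes DESeq2 passed 9 (786 of 1386 entries), or 7 without PBS replicate 2 (595 of 1386), and edgeR with 1 library left out 0 to 6 (0 to 734 of 1386). Log2 differences of pair ratios that changed sign ran from -1.33 to 0.28 for Fads1 over Scd2, -0.74 to 0.27 for Fads1 over Lpin1, -0.37 to 0.27 for Scd2 over Fasn (0.10 without Akk replicate 3) and -0.0076 to 0.59 for Scd2 over Lpin1. The cause was not tested.

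The replicate block passed 6 entries and 0 of the 5 genes, with Fads2 at -2.46, and 0 entries without PBS replicate 2. Libraries that share a number had correlations of 0.24, -0.08 and -0.30, so the numbers are not taken to pair samples.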
